A study of Mus musculus with 6 samples.

Results

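Transcripts of 28 genes of cholesterol synthesis and its control were followed in differentiating mouse myoblasts after knockdown of a long noncoding RNA. The 28 were a list of symbols: enzymes that build cholesterol from acetyl-CoA, the SREBP factors and their sensors, a sterol carrier, and 4 enzymes of fatty acid synthesis that SREBP factors also control. Probes were assigned by the RefSeq accession printed for them on the array, and 28 of the 20659 genes named in that way, read by 39 of the 39429 probes, made up the list. Where a gene had several probes, the one with the highest mean signal stood for it, and that probe was well above background on all 6 arrays for 28 of 28 genes.

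The cells were C2C12, a mouse myoblast line that stops dividing and fuses into myotubes when induced to differentiate. In the si-lncMGPF group (3 samples) they carried an siRNA against lncMGPF, and in the si-NC group (3 samples) a control siRNA. Both groups had differentiated for 2 days, and total RNA was labelled with Cy3 and read on 1-colour Agilent expression arrays. The target itself was not checked, because 0 probes carried the name lncMGPF. Nothing in the labels says that the 3 samples of a group came from separate cultures. The p-values thus cover the spread among these samples, part or all of which may be technical. In RNA from a whole culture, fewer cells of a type and less RNA per cell cannot be told apart.

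Cholesterol is made in the cytosol and endoplasmic reticulum. Acetyl-CoA is condensed and reduced to mevalonate, mevalonate is turned into isoprenoid diphosphates, these are joined into squalene, squalene is closed into lanosterol, and lanosterol is trimmed to cholesterol. When membrane sterol is low, Scap carries the SREBP precursors to the Golgi, where they are cut to release transcription factors that raise the genes of this pathway together. When sterol is high, Insig proteins hold Scap back. Muscle cells use cholesterol in the plasma membrane, in caveolae and in the membranes that fuse during myotube formation.

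SREBP factors bind sterol regulatory elements close to start sites and usually act beside NF-Y, which binds CCAAT, and Sp1, which binds GGGCGG. The first bases upstream of the RefSeq start sites (GRCm38.p6, 250 per start) were therefore read for 22 of the 28 genes, in 30 windows, on both strands. A core of the sterol regulatory element, TCACNCCA, was found in 3 of the 30 windows (10%), against 3.36% of 14328 windows of genes tested on these arrays. The windows with it belong to Hmgcs1, Msmo1 and Srebf2 and are shown because they hold the element through which the pathway's own factors are known to act. Capitals mark the core and any CCAAT box (or its reverse, ATTGG) beside it.
Hmgcs1, chr13:119690184-119690251, plus strand: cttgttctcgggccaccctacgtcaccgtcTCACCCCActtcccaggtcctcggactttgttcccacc
Msmo1, chr8:64733718-64733785, minus strand: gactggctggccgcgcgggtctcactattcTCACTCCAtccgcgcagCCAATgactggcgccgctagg
Srebf2, chr15:82147077-82147144, plus strand: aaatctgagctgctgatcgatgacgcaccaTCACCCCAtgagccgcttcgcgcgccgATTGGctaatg

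CCAAT was present in 20 of the 30 windows (66.7%), against 35.0% of windows of tested genes, and GGGCGG in 22 of 30 (73.3%), against 52.8%. The E-box TCACGTGA was in 0 of 30, against 1.38%. The median GC content was 62.6% in the windows of the 28 genes and 58.8% in those of tested genes. By gene, 19 of 22 had a CCAAT in at least 1 window; Acat2, Scap and Acaca had none. The end of the core shares letters with the start of CCAAT, and the matches printed above do not overlap. A match describes the letters alone. The whole 250 bases are shown for the 3 genes with the lowest p-values in the comparison below, chosen after their values were seen, with CCAAT and GGGCGG (either strand) in capitals.
Mvd, chr8:122443423-122443672, minus strand: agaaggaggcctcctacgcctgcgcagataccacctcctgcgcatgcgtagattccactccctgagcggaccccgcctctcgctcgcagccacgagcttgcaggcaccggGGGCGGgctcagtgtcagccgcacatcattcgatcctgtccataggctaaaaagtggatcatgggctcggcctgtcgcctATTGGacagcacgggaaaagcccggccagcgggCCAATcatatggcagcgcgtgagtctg
Cyp51, chr5:4104698-4104947, minus strand: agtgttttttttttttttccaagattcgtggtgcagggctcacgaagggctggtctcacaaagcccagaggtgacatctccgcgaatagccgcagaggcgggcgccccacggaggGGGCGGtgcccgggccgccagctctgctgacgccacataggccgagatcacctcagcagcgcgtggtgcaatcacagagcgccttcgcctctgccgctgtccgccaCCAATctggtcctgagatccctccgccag
Insig1, chr5:28071162-28071411, plus strand: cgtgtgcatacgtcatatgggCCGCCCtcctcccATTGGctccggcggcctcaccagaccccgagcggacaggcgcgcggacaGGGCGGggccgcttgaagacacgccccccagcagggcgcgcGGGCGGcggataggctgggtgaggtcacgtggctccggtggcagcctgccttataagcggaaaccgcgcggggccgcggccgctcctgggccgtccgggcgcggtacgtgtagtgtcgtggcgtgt

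Arrays with the same scan identifier in their headers are called a slide here. Slide 1 held si-lncMGPF replicate 1 and the 3 si-NC arrays, and slide 2 held si-lncMGPF replicates 2 and 3 alone. Negative control spots had a mean net signal of 21.8, 37.3 and 42.5 intensity units on si-lncMGPF replicates 1, 2 and 3, against 20.1 to 21.5 on si-NC. The share of probes well above background was 64.2%, 57.3% and 56.9% on the si-lncMGPF arrays, against 64.1% to 65.3% on si-NC. The 75th percentile of processed signal, by which each array was scaled, was 923, 580.2 and 492.1 on si-lncMGPF, against 688.2 to 930.7 on si-NC. On log2 signal, si-lncMGPF replicate 1 correlated with the si-NC arrays at 0.993 to 0.995 and with the other si-lncMGPF arrays at 0.987 to 0.988. Differences below are over all arrays unless a slide is named, and a difference for a slide is from the same 3 si-NC arrays. What the second slide adds for replicates 2 and 3 cannot be told apart from the knockdown.

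All 9 muscle markers examined, among them Myog and Myh3, were above background on all 6 arrays, and their summed level (linear, relative to the 75th percentile) was 132.6 to 145.8 in si-lncMGPF and 131.8 to 142.7 in si-NC. The sum hides differences in both directions. In log2, si-lncMGPF minus si-NC, Actc1 was at 0.27 and above si-NC on all si-lncMGPF arrays, and Myh3 at -0.15 and below on all. Acta1 was at -0.30 (0.23 on slide 1 and -0.57 on slide 2), and the other markers lay between Acta1 and Actc1. Of 6 adipocyte markers 1 was above background on all arrays, and Adipoq and Lep on none, with sums of 0.097 to 0.17 in si-lncMGPF and 0.093 to 0.10 in si-NC. Of 6 hepatocyte markers 2 were above background on all arrays, and Alb, Apoa1 and Fgb on none, with sums of 18.7 to 19.4 in si-lncMGPF and 16.6 to 20.7 in si-NC. Nearly all of that sum was the 1 probe of Apoa2, at a log2 signal of 4.21 to 4.26 in si-lncMGPF and 4.03 to 4.36 in si-NC. Of 4 macrophage markers 3 were on the array, with Adgre1 and Csf1r above background on all 6 arrays and Ptprc on 5. They summed to 0.38 to 0.49 in si-lncMGPF and 0.40 to 0.47 in si-NC. The part of these cell types in the results below was not tested.

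Most of the 28 genes read slightly higher with si-lncMGPF over all arrays, and none passed the test. The log2 change (si-lncMGPF minus si-NC) was above 0 for 23 of 28, where 52.3% of all tested probes were, with a median of 0.19 beside 0.012 over all 24656 tested probes. Over the 14263 tested named genes, each by its brightest tested probe, 54.0% were above 0 and the median was 0.020. On slide 1 alone the median was -0.014, with 13 of 28 above 0. Changes ranged from -0.12 for Insig2 to 0.35 for Cyp51. By limma, 0 of 28 genes had an adjusted p below 0.05, a threshold that 0.105% of tested probes passed (0.0284% higher and 0.0771% lower). The count was 7 with si-lncMGPF replicate 1 left out and 19 with array weights, in fits that called 16.7% and 54.3% of tested probes. With no adjustment, p was below 0.05 for 3 that were higher (Mvd, Cyp51 and Insig1; background 6.40%) and 0 lower (background 9.43%), so 3 of 28 in all where 15.8% of tested probes passed. The 3 si-lncMGPF arrays all lay above the 3 si-NC arrays for 6 genes, namely Mvd, Cyp51, Insig1, Srebf2, Fasn and Scd2, which is 6 of 28 where 9.63% of tested probes did so. They all lay below for 0 of 28, where 13.3% of tested probes did.

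**Figure D1:**
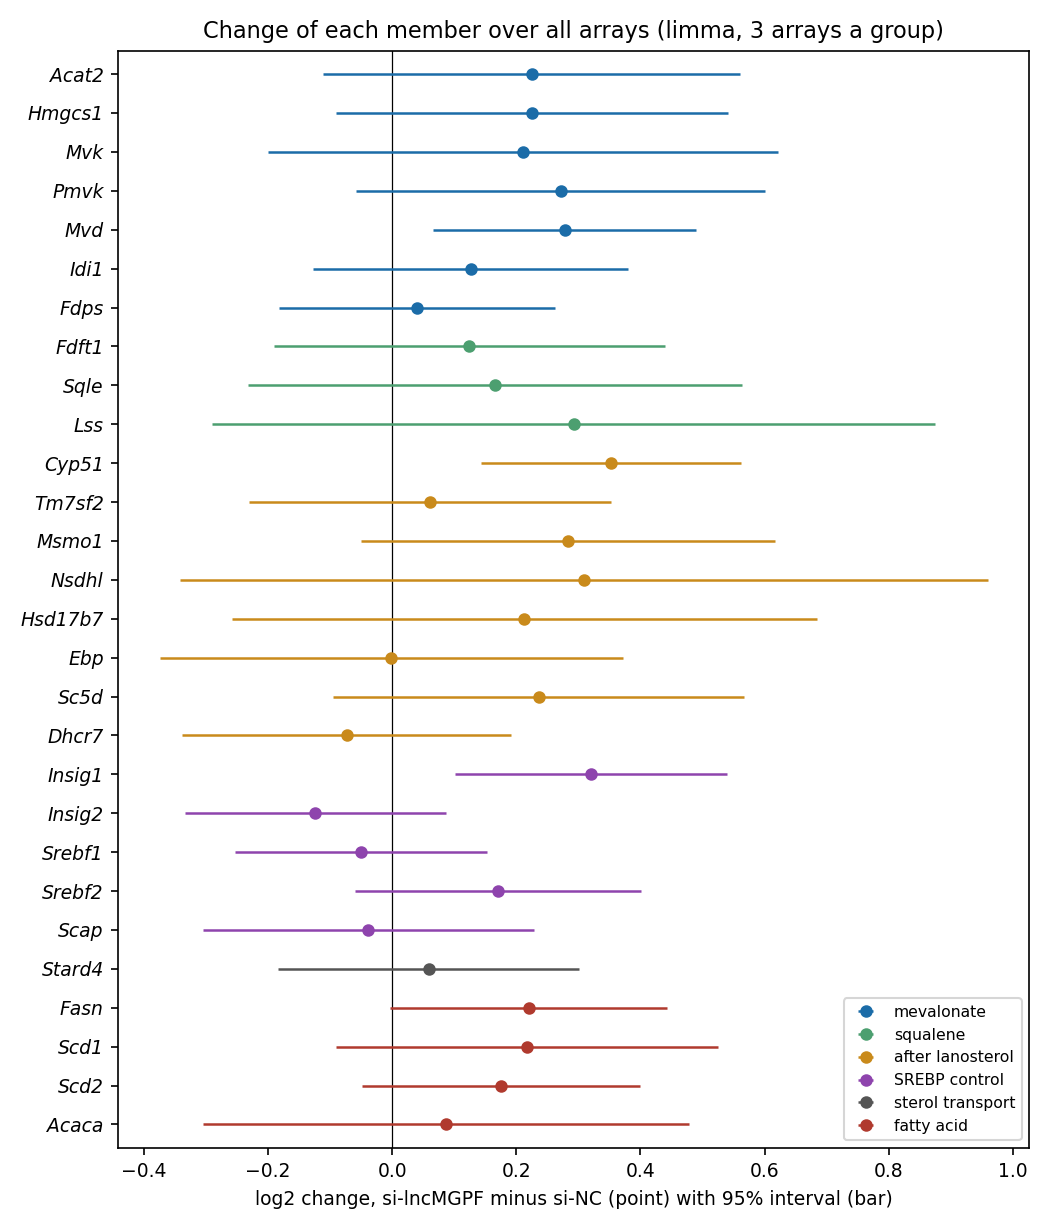
The log2 change of each of the 28 genes (horizontal axis, si-lncMGPF minus si-NC, limma, 3 arrays a group) with its 95% interval, in pathway order from top to bottom and coloured by role. The intervals of Mvd, Cyp51 and Insig1 lie above 0, and those of the other 25 genes include it.

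The 7 genes of the mevalonate steps all had a positive log2 change over all arrays, with a median of 0.22. The median was -0.046 on slide 1, where 5 of 7 were below 0, and 0.28 on slide 2, where 7 of 7 were above. Signals below are log2 of the processed signal relative to the 75th percentile of the same array, in the order of replicates 1, 2 and 3. Mvd encodes the decarboxylase that makes isopentenyl diphosphate, the isoprenoid unit. Its signal was -0.64, -0.68 and -0.58 in si-lncMGPF, against -0.84, -1.0 and -0.88 in si-NC. The groups did not overlap, and the si-lncMGPF arrays of both slides read alike (log2 change 0.28, SE 0.089, adjusted p = 0.245, limma).

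Hmgcs1, the synthase that makes HMG-CoA, had another pattern. It read 3.81, 4.19 and 4.24 in si-lncMGPF, against 3.89, 3.83 and 3.84 in si-NC. Replicates 2 and 3 were above every si-NC array and replicate 1 was just below all of them (log2 change 0.23, SE 0.13, adjusted p = 0.427, limma). The same split was seen for Pmvk, the kinase that phosphorylates phosphomevalonate. Its signal was 2.68, 3.15 and 3.09 in si-lncMGPF, against 2.69, 2.72 and 2.70 in si-NC (log2 change 0.27, SE 0.14, adjusted p = 0.378, limma). Mvk, the kinase before it, read 1.96, 2.63 and 2.31 with si-lncMGPF, against 2.01, 2.15 and 2.10 with si-NC, again with replicate 1 lowest of the 6 (log2 change 0.21, SE 0.17). Leaving out si-lncMGPF replicate 1 gave Mvk a change of 0.38, and leaving out replicate 2 of that group gave 0.044. Acat2, the thiolase that joins acetyl-CoA units, split in another way, with 0.26, -0.074 and 0.28 in si-lncMGPF and -0.26, 0.084 and -0.040 in si-NC. Replicates 1 and 3 were above the si-NC range and replicate 2 was inside it (log2 change 0.22, SE 0.14, adjusted p = 0.452, limma). The isomerase gene Idi1 (log2 change 0.13, SE 0.11) and Fdps, which makes farnesyl diphosphate (0.040, SE 0.093), had the smallest differences of these 7. On slide 1 and slide 2 they were -0.046 and 0.21 for Idi1, and -0.086 and 0.10 for Fdps.

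The 3 genes from farnesyl diphosphate to lanosterol had log2 changes of 0.12 to 0.29, with adjusted p from 0.565 to 0.651 by limma, and differed in which array was high. Sqle, the squalene epoxidase and a rate-controlling enzyme of the later pathway, read 4.41, 5.001 and 4.93 in si-lncMGPF, against 4.54, 4.68 and 4.62 in si-NC. Replicate 1 was the lowest of all 6 arrays and the other two were the highest. Lss, the cyclase that makes lanosterol, ran the other way, with -2.04, -2.87 and -2.26 in si-lncMGPF and -2.41, -2.98 and -2.66 in si-NC. Here replicate 1 was the highest and replicate 2 was within a spread of si-NC arrays that was wide (SD 0.29, n = 3). Fdft1, the squalene synthase, was likewise highest on replicate 1, at 1.73, 1.27 and 1.45 in si-lncMGPF and 1.41, 1.32 and 1.35 in si-NC.

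Of the 8 genes from lanosterol to cholesterol 6 had a positive change, with a median of 0.22 over the 8. The median was 0.030 on slide 1, with 4 of 8 above 0, and 0.17 on slide 2, with 7 of 8 above. Cyp51, the demethylase that acts first on lanosterol, had the lowest p of the 28 genes. It read 0.17, 0.12 and 0.29 in si-lncMGPF, against -0.13, -0.16 and -0.19 in si-NC. All 3 si-lncMGPF arrays lay well above the si-NC arrays, a 1.28-fold difference in mean (log2 change 0.35, SE 0.088, 95% interval 0.14 to 0.56, adjusted p = 0.213, limma). Over 20 other settings its change ranged from 0.30 to 0.46, and it passed the threshold under 2, array weights and without si-lncMGPF replicate 1. Several of the 20 could not move the change: the dim-probe filters, the prior, the replicate block and the series table.

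Msmo1, the methylsterol oxidase that follows, read 3.16, 3.62 and 3.60 in si-lncMGPF, against 3.21, 3.19 and 3.13 in si-NC. Replicates 2 and 3 were above every si-NC array and replicate 1 was among them (log2 change 0.28, SE 0.14, adjusted p = 0.365, limma). Sc5d, a desaturase of the last steps, had 0.90, 1.37 and 1.31 with si-lncMGPF, against 0.98, 0.93 and 0.96 with si-NC. It repeated the order of Hmgcs1, replicate 1 lowest and the other two highest (log2 change 0.24, SE 0.14, adjusted p = 0.428, limma). Ebp, a sterol isomerase, was split further, with 3.50, 4.03 and 4.01 in si-lncMGPF and 3.82, 3.89 and 3.83 in si-NC, which left a mean difference near 0 (SE 0.16).

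Nsdhl and Hsd17b7, a dehydrogenase and a ketoreductase of the same demethylation reactions, were high on si-lncMGPF replicate 1. Nsdhl read 0.35, -0.75 and -0.16 in si-lncMGPF, against -0.29, -0.71 and -0.49 in si-NC. Its si-lncMGPF arrays had the widest spread of the 28 genes (SD 0.55, n = 3), so the log2 change of 0.31 had an SE of 0.27. Hsd17b7 read -0.45, -1.08 and -0.63 in si-lncMGPF, against -0.68, -1.17 and -0.95 in si-NC (log2 change 0.21, SE 0.20). Without si-lncMGPF replicate 1 the change was 0.042 for Nsdhl, 0.079 for Hsd17b7 and 0.12 for Lss, and without si-lncMGPF replicate 2 it was 0.59, 0.39 and 0.53. In Lss, Nsdhl and Hsd17b7, the only genes of the 28 whose si-NC SD was over 0.2, replicate 1 was the highest and replicate 2 the lowest array in each group. With replicate number as a block in the fit, adjusted p by limma was 0.266 for Lss, 0.349 for Nsdhl and 0.331 for Hsd17b7. Without the block, adjusted p by limma was 0.565, 0.588 and 0.604. The reductase genes Tm7sf2 (log2 change 0.061, SE 0.12) and Dhcr7, which acts at the end of the pathway (-0.073, SE 0.11), had small differences. On the brightest probe these turned between slide 1 and slide 2 (-0.17 and 0.18 for Tm7sf2, 0.073 and -0.15 for Dhcr7). The second probe of Tm7sf2 did not turn, at 0.20 on slide 1 and 0.067 on slide 2.

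**Figure D2:**
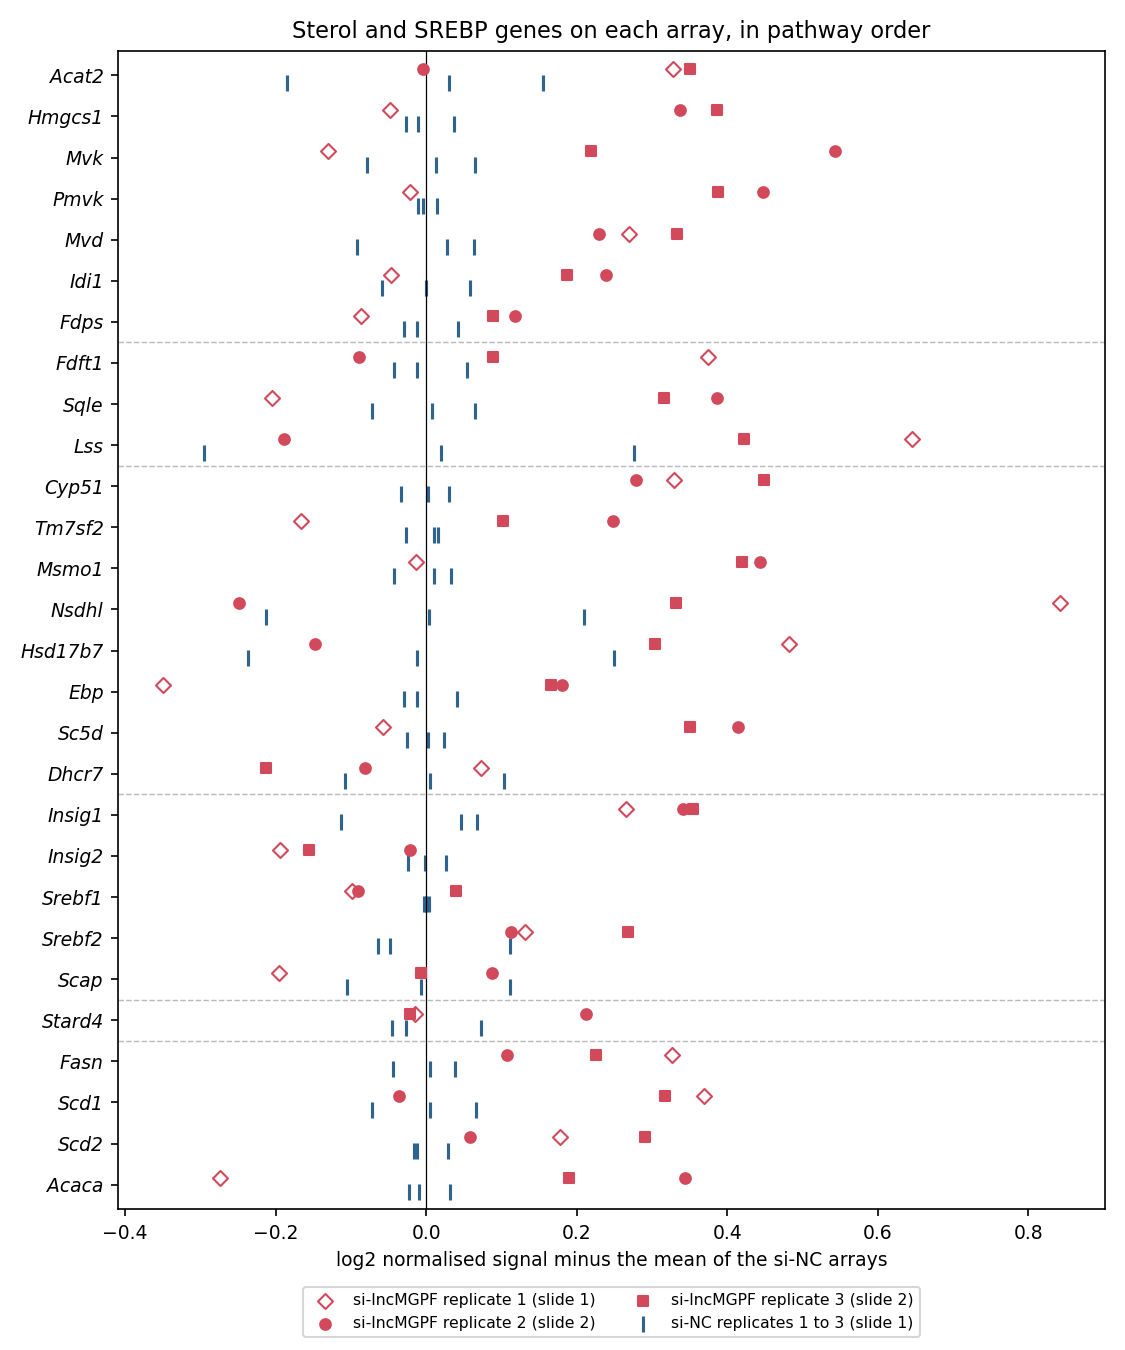
The log2 normalised signal of each gene on each array, minus the mean of its si-NC arrays (horizontal axis), in pathway order, with dashed lines between roles. Red symbols are si-lncMGPF arrays, open for replicate 1 on slide 1 and filled for replicates 2 and 3 on slide 2, and blue bars are the 3 si-NC arrays; open symbols often fall on the other side of the blue bars from filled ones.

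The genes that sense sterol and switch the pathway differed in sign, with 2 of 5 above 0. Insig1, which retains Scap in the endoplasmic reticulum and is itself a target of SREBP factors, read -1.38, -1.31 and -1.29 in si-lncMGPF, against -1.58, -1.60 and -1.76 in si-NC. The si-lncMGPF arrays of both slides lay above the 3 si-NC arrays of slide 1, a 1.25-fold difference in mean (log2 change 0.32, SE 0.092, 95% interval 0.10 to 0.54, adjusted p = 0.228, limma). Its paralog Insig2, which is less dependent on SREBP factors, read 2.50, 2.67 and 2.54 in si-lncMGPF, against 2.69, 2.72 and 2.67 in si-NC. Replicates 1 and 3 were below all si-NC arrays and replicate 2 was level with the lowest (log2 change -0.12, SE 0.088, adjusted p = 0.503, limma).

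Srebf2 encodes the SREBP factor that acts mainly on cholesterol genes. It read 0.253, 0.234 and 0.389 in si-lncMGPF, against 0.233, 0.058 and 0.073 in si-NC. The groups did not overlap, but the lowest si-lncMGPF and the highest si-NC array were all but equal (log2 change 0.17, SE 0.096, adjusted p = 0.412, limma). Srebf1, whose products act more on fatty acid genes, read -0.10, -0.091 and 0.038 in si-lncMGPF, against 0.0022, -0.0017 and -0.0032 in si-NC. Its si-NC arrays were almost identical, and the si-lncMGPF arrays lay on both sides of them (log2 change -0.050, SE 0.085, 95% interval -0.25 to 0.15). Scap, the escort protein, read 2.09, 2.37 and 2.28 in si-lncMGPF, against 2.18, 2.40 and 2.28 in si-NC, so replicate 1 was lowest and the others were within the si-NC range (log2 change -0.038, SE 0.11). The sterol carrier gene Stard4 had a log2 change of 0.059 (SE 0.10) on its brighter probe, with -0.015 on slide 1 and 0.096 on slide 2.

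The 4 fatty acid genes all had positive changes, from 0.087 to 0.22, and 0 passed the threshold. Fasn, the fatty acid synthase, read -1.74, -1.96 and -1.84 in si-lncMGPF, against -2.03, -2.12 and -2.06 in si-NC, without overlap (log2 change 0.22, SE 0.094, adjusted p = 0.321, limma). Scd2, a stearoyl-CoA desaturase, also did not overlap, at 5.63, 5.51 and 5.74 in si-lncMGPF and 5.43, 5.43 and 5.48 in si-NC (log2 change 0.18, SE 0.094, adjusted p = 0.393, limma). Scd1, another desaturase of the same family, read 4.22, 3.82 and 4.17 in si-lncMGPF, against 3.92, 3.78 and 3.86 in si-NC. Replicates 1 and 3 were above the si-NC arrays and replicate 2 was inside their range (log2 change 0.22, SE 0.13). Scd1 and Scd2 are close paralogs, so a probe for one may also read the other. Acaca, the acetyl-CoA carboxylase, read 2.80, 3.42 and 3.27 in si-lncMGPF, against 3.11, 3.07 and 3.05 in si-NC, with replicate 1 lowest of the 6 arrays and the others highest.

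The slides divided the genes. On slide 1, where si-lncMGPF replicate 1 stood against 3 si-NC arrays, the median difference over the 28 genes was -0.014, with 13 of 28 above 0 (44.1% of all tested probes were). On slide 2 the median difference from the same si-NC arrays was 0.17, with 24 of 28 above 0 (55.0% of all tested probes were). Of the 14263 tested named genes, each by its brightest tested probe, 5603 were above 0 and 8646 below on slide 1. On slide 2, 8523 were above and 5740 below. Replicate 1 lay above all si-NC arrays for 12 of the 28 genes and below them all for 12, against 32.6% and 43.2% of tested probes. Among the 14263 named genes it was above for 4148 and below for 7057. Replicates 2 and 3 both lay above all si-NC arrays for 17 genes and below them all for 0, against 29.8% and 23.7% of tested probes. These 2 shares were not counted among named genes or among probes of like signal. With slide as a fixed block the estimate is that of slide 1, and so rests on 1 si-lncMGPF array; with slide as a random block the median was 0.048, with 19 of 28 above 0.

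By sign, 11 genes were above 0 on both slides. These were Acat2, Mvd, Lss, Cyp51, Nsdhl, Hsd17b7, Insig1, Srebf2, Fasn, Scd1 and Scd2, each on its brightest probe. The second probe of Nsdhl was at -0.18 on slide 1. The 11 had a positive change in each of the 20 other settings run, but much of this was fixed by how they were picked. Slide 1 alone, the fixed block and the fit without si-lncMGPF replicate 1 return the slide differences themselves. Dim-probe filters, priors, the replicate block and the series table leave the change as it was. The share of all tested probes above 0 on both slides was not counted. For 13 genes the difference on the brightest probe was below 0 on slide 1 and above 0 on slide 2. Among them were Hmgcs1 (-0.048 and 0.36), Pmvk (-0.022 and 0.42), Msmo1 (-0.013 and 0.43), Sqle (-0.20 and 0.35) and Acaca (-0.27 and 0.27). The split depended on the probe: a dimmer probe was above 0 on slide 1 for Mvk (0.059), Pmvk (0.069), Tm7sf2 (0.20) and Stard4 (0.68). The dimmer probes of Acaca were below 0 on slide 1 (-0.50 and -0.23). Insig2, on its brighter probe, and Srebf1 were below 0 on both slides. Cyp51 (0.33 on slide 1, 0.36 on slide 2), Mvd (0.27 and 0.28) and Scd2 (0.18 and 0.17) had nearly the same difference on each. With si-lncMGPF replicate 1 left out, each group lies on its own slide, and 7 of the 28 genes passed the threshold, all higher: Hmgcs1, Pmvk, Sqle, Cyp51, Msmo1, Sc5d and Insig1. In that fit 7.07% of all tested probes were called higher and 9.63% lower, 16.7% in all. Array weights, which gave si-lncMGPF replicate 1 the lowest weight of the 6 arrays, called 19 of 28, 17 higher and 2 lower (Dhcr7 and Insig2), in a fit that called 54.3% of all tested probes, 29.4% higher and 24.9% lower.

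**Figure D3:**
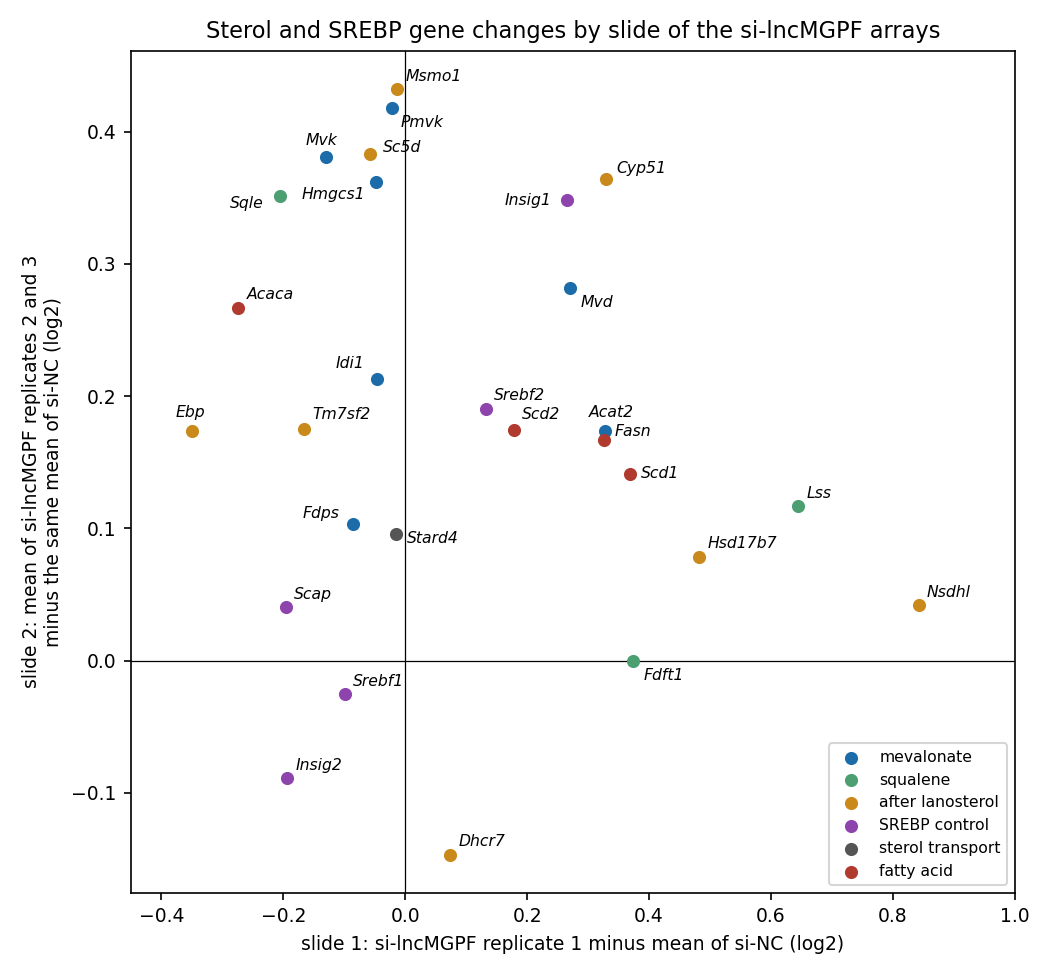
Each gene's log2 difference from the mean of the 3 si-NC arrays on slide 1 (horizontal axis, si-lncMGPF replicate 1) and on slide 2 (vertical axis, mean of si-lncMGPF replicates 2 and 3), coloured by role. Cyp51, Insig1 and Mvd lie high on both axes, Hmgcs1, Pmvk, Msmo1 and Sc5d are high on the vertical axis alone, and Nsdhl, Lss, Hsd17b7 and Fdft1 are high on the horizontal axis alone.

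Signal level moved with these differences. When the tested probes were placed in 5 bins of equal size by mean signal, 13 of the 28 genes fell in the brightest bin, 8 in the next, 5 in the middle bin, 2 in the next and 0 in the dimmest. Over all tested probes of the brightest bin the median difference was -0.11 on slide 1 and 0.13 on slide 2. The 13 bright genes had -0.086 and 0.21. In the next bin the 8 genes had 0.059 on slide 1 and 0.17 on slide 2, where all probes had -0.11 and 0.058. In the middle bin the 5 genes, Mvd, Nsdhl, Hsd17b7, Insig1 and Fasn, had 0.33 and 0.17, where all probes had -0.0082 and 0.0038. Cyclic loess, which removes a trend with signal between arrays, left a median of 0.17 over the 28 genes and -0.0094 over all probes. How much of each gene's difference goes with its signal level was not tested.

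**Figure D4:**
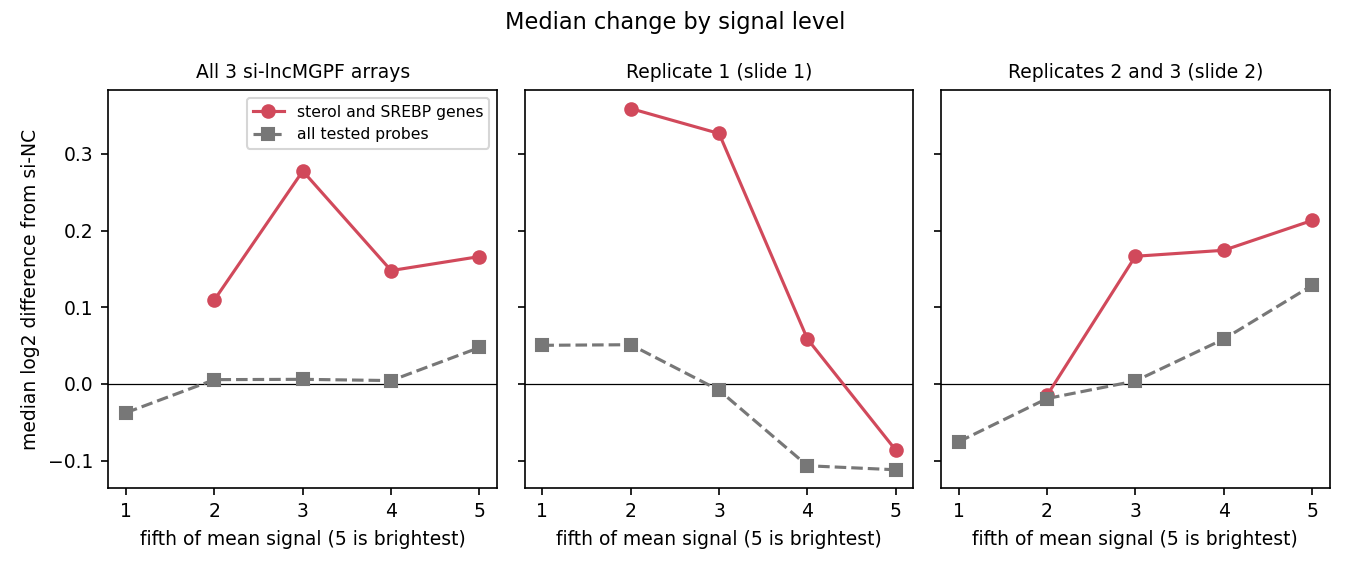
Median log2 difference from si-NC (vertical axis) in 5 bins of mean signal (horizontal axis, bin 5 brightest) for the sterol and SREBP genes (red circles) and all tested probes (grey squares), over all arrays and for each slide. Bright probes as a whole read low on slide 1 and high on slide 2, and the red points lie above the grey ones in each bin that holds any of the 28 genes, with nearly equal values in bin 2 on slide 2.

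For 10 of the 28 genes there was more than 1 probe, and 38 of the 39 probes passed the filter on dim probes; the other was a dim probe of Fdft1. Both probes of Mvk and Pmvk had changes of 0.21 to 0.29, and the dimmer one of each was higher on all 3 si-lncMGPF arrays than on any si-NC array. The dimmer probe of Stard4 read -1.63, -2.11 and -1.69 in si-lncMGPF, against -2.09, -2.49 and -2.34 in si-NC. Its log2 change was 0.49 (SE 0.17, adjusted p = 0.259, limma), against 0.059 on the brighter probe. The second probe of Nsdhl had 0.074 where the first had 0.31, and it was lowest on replicate 1, the array on which the first was highest. For Srebf2 the second probe had 0.038. For Insig2 the second probe had -0.056 over all arrays but 0.27 on slide 1, where replicate 1 was the highest of the 6 arrays, opposite to the first probe. The 3 probes of Acaca disagreed in sign, at 0.087 on the brightest, -0.48 and 0.34. The probe with -0.48 read -3.93, -4.03 and -3.76 in si-lncMGPF, against -2.78, -3.73 and -3.78 in si-NC, where replicate 1 of si-NC alone stood high.

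**Figure D5:**
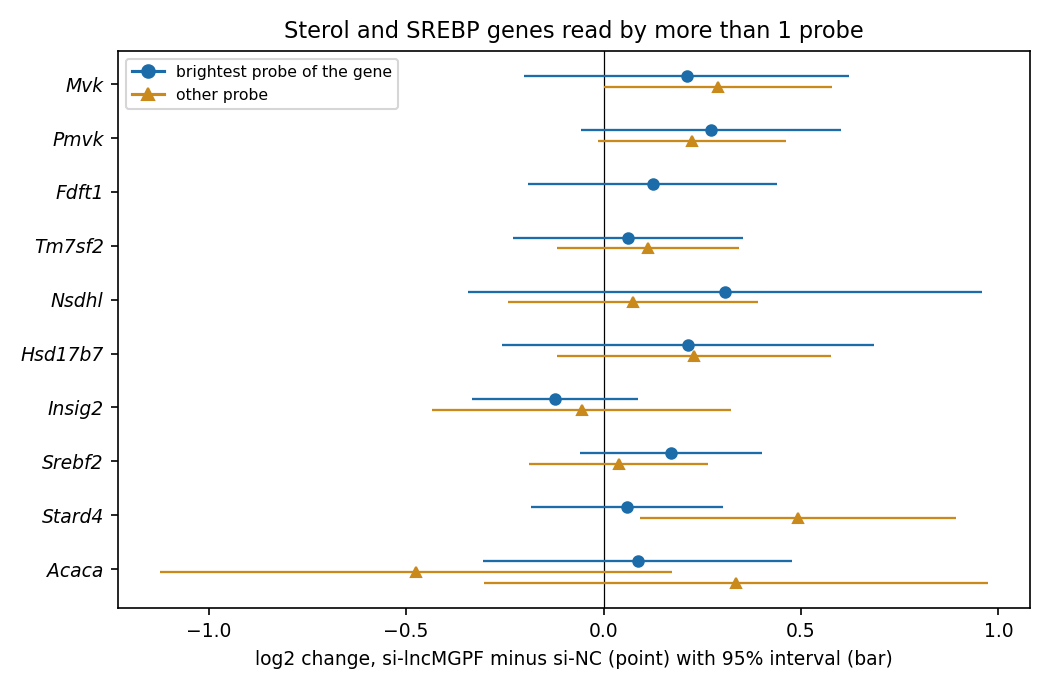
The log2 change (horizontal axis, si-lncMGPF minus si-NC) with its 95% interval for each tested probe of the 10 genes read by more than 1 probe, the brightest as blue circles and the others as orange triangles. The intervals of a gene's probes overlap for each of the 9 genes with more than 1 tested probe, and the probes of Acaca lie on both sides of 0.

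Genes of the wider pathway behaved in a similar range. Of 49 further genes listed for SREBP processing, other sterol steps, the isoprenoid branch, other fatty acid steps, and sterol efflux and storage, 46 were tested and 0 passed the threshold by limma, while 3 had an unadjusted p below 0.05, each of them higher. That is 3 of 46 where 6.40% of all tested probes were higher at that level. The median change was 0.096 with 33 of 46 above 0, and -0.071 on slide 1 against 0.12 on slide 2. By group the medians were 0.11 for 10 genes of SREBP processing and degradation, 0.058 for 9 genes of the isoprenoid branch, 0.12 for 10 fatty acid genes and 0.059 for 14 genes of efflux, storage and the LXR receptors. On slide 1 each of these 4 medians was below 0, from -0.094 to -0.056.

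Slc25a1, which exports citrate from mitochondria as a carbon source for both lipids, had the lowest p of these. It read -0.69, -0.49 and -0.43 in si-lncMGPF, against -0.98, -0.89 and -0.93 in si-NC, without overlap (log2 change 0.39, SE 0.10, adjusted p = 0.214, limma), and the difference was 0.24 on slide 1 and 0.47 on slide 2. Npc2, which takes part in moving cholesterol out of lysosomes, read 3.91, 3.94 and 4.01 in si-lncMGPF, against 3.65, 3.68 and 3.72 in si-NC (log2 change 0.27, SE 0.082, adjusted p = 0.238, limma). Pdss1, which makes the side chain of ubiquinone, had 0.25 (SE 0.095). For these 3 the si-lncMGPF arrays of both slides lay above the si-NC arrays of slide 1. On the lower side were Gramd1a, a carrier of plasma membrane sterol (-0.27, SE 0.13), the fatty acid elongase gene Elovl6 (-0.23, SE 0.10), and the LXR gene Nr1h3 (-0.21, SE 0.14). Of these, the groups did not overlap for Elovl6, at 1.67, 1.97 and 1.84 in si-lncMGPF and 2.03, 2.05 and 2.07 in si-NC.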

How the data were processed

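Groups follow the siRNA named in the labels. Per the file headers, the authors' intensity values are processed signals of Feature Extraction 11.0.1.1, after subtraction of background and detrending; the deposited series table repeats them at 44397 of 44397 spots. Outlier spots (117 to 134 per array) were left out, and 0 spots were saturated. Values are log2 of the processed signal minus that of the array's 75th percentile, with spots of a probe averaged, so a shift of most transcripts cannot be seen. Probes entered the test when either group had them well above background on all its arrays (24656 probes, 14263 named genes). Names and promoters come from RefSeq GRCm38.p6 tables; the arrays' design names another build. The test was limma's (version 3.58.1, R 4.3.3; lmFit and eBayes without covariates), Benjamini-Hochberg adjusted over all tested probes, threshold 0.05. The procedure was run on simulated data with independent errors and no slide effect, which cannot show how it does with the slide layout here. The arrays' number limits precision.

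The 28 genes, the other lists and the motifs were chosen with earlier results of these data known. Array by array values are given for the 12 genes with the lowest p, the SREBP control genes and genes whose probes differ in sign by over 0.3; others were added after their values were seen. Of the other pathway genes, the 3 with the lowest p in each direction are named. The main test did not pair arrays by replicate number. Deviations of same-numbered arrays correlated at 0.18, 0.32 and -0.058. For numbers 1 and 2, but not 3, the best match was the array of the same number, so whether the numbers pair the arrays is not settled. Alternatives were scalings, normexp on median spot signals (mean spot signals were not used here), dim-probe filters, priors, array weights, blocks by slide and replicate number, probe averaging, the series table and each array left out in turn. Figures were drawn with matplotlib 3.10.9.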

Additional observations from a re-analysis of the deposited data

How the results depend on the processing

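Of all probes, 26 were called; the count was 6 with quantile normalization, 10 with slide as a fixed block, 1 on slide 1 alone, and 0 without a filter on dim probes (5277 at an unadjusted p below 0.05). With the replicate block it was 0 (4432 unadjusted); the block left 0 of the 28 genes called, and si-lncMGPF replicates 1 and 2, but not 3, correlated best with their own number. Array weights ran from 0.109 to 9.98 and called 13398 probes (54.3%), among them 19 of the 28 genes. Leaving out 1 array gave 0 to 4117 probes and 0 to 7 of the 28 genes. The 4117 came with si-lncMGPF replicate 1 left out, which puts each group on its own slide, and there were 4 without replicate 2; without si-lncMGPF replicate 3 or si-NC replicate 1, 2 or 3 there were 0, with 2230, 2696, 1926 and 1877 unadjusted. In the other settings run, 0 of the 28 genes were called.

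The median change of 0.19 became -0.014 with slide as a fixed block or slide 1 alone, and 0.048 with slide as a random block; it was 0.14 to 0.20 with 1 array left out. On slide 1 alone or with the fixed block, the sign turned for Hmgcs1 (-0.048), Mvk (-0.13), Pmvk (-0.022), Idi1 (-0.046), Fdps (-0.086), Sqle (-0.20), Tm7sf2 (-0.17), Msmo1 (-0.013), Sc5d (-0.058), Dhcr7 (0.073), Stard4 (-0.015) and Acaca (-0.27). With the random block it turned for Mvk (-0.030), Fdps (-0.049), Sqle (-0.096), Tm7sf2 (-0.100), Dhcr7 (0.030) and Acaca (-0.17). Fdps was -0.011 with quantile normalization and -0.030 with cyclic loess, Ebp 0.0080 with median centring and 0.16 with array weights, Srebf1 0.026 with array weights, and Acaca -0.017 as a mean of its probes. With 1 array left out, Fdft1 ranged from -0.00018 to 0.23, Ebp from -0.092 to 0.17, Scap from -0.10 to 0.040, Tm7sf2 from -0.032 to 0.18, Stard4 from -0.018 to 0.099 and Acaca from -0.042 to 0.27. The cause was not tested. Negative control spots read higher on slide 2, so dim probes are less certain there.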
